A study of Rattus norvegicus with 4 samples.

Results

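The CXC chemokine ligands of the rat alveolar macrophage line NR8383 are described here on 4 arrays. The members are Cxcl1, Cxcl2, Cxcl3, Cxcl6, Cxcl9, Cxcl10, Cxcl11, Cxcl12, Cxcl13 and Cxcl16. A probe was taken as a member's when its accession carried that gene's RefSeq symbol, which gave 11 probes for 9 of the 10 genes, among 16506 named genes measured. No accession on the array matched Cxcl3, so no value is given for it. NR8383 is an established macrophage line obtained by lavage of a rat lung, and it grows partly attached and partly floating. The study held 1 condition, and the 4 samples were labelled as biological replicates of it. Cells after 20 passages, grown in DMEM with 15% heat-inactivated fetal bovine serum, glutamine, penicillin, streptomycin and amphotericin B, were seeded for 48 h and then kept for 4 h in DMEM with 10% fetal bovine serum. The labels add the letters ALI, which are not interpreted here. No other agent was given, so there was no comparison between groups, and the design allows a description of levels and of their spread between replicates.

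CXC chemokines are small secreted proteins that guide white blood cells up a concentration gradient by binding receptors of the G protein coupled family. Those with the residues glutamate, leucine and arginine before the first cysteines are the ELR ligands Cxcl1, Cxcl2, Cxcl3 and Cxcl6. They act on Cxcr2, and some of them also on Cxcr1, and draw neutrophils. Macrophages of the lung make several of them after bacterial or inflammatory signals that act through NF-kB. Cxcl9, Cxcl10 and Cxcl11 lack these residues, are induced by interferons, and draw activated T cells and NK cells through Cxcr3. Cxcl12 and Cxcl13 are produced steadily by stromal cells of marrow and lymphoid tissue and act on Cxcr4 and Cxcr5, while Cxcl16 is made as a membrane protein that binds Cxcr6 and can be cut loose.

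The arrays were one-colour scans on 1 slide, read in 1 scan. The 75th percentile of signal, by which each array was scaled, was lowest on replicate 1 at 83.4 and lay between 112 and 167 on the others. Negative control spots were far dimmer, since the 75th percentile exceeded their 95th by 25.7-fold to 46.5-fold, and the number of arrays limits the precision. A level below is the log2 processed signal minus the log2 of the array's own 75th percentile. Levels of different probes cannot be set against each other, because probes differ in how strongly they bind. A gene was called detected when the majority of a probe's spots carried the well-above-background flag on each array. No member's spot lay in the rectangle of rows 166 to 216 and columns 73 to 88 that held the 77 detected probes reading more than 2 log2 units lower on replicate 4 than on the other arrays.

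Ligands of both functional classes, ELR and interferon-inducible, were detected in the line. Of the 9 measured members 4 were detected: the neutrophil attractant Cxcl2, the interferon-inducible Cxcl9 and Cxcl10, and the membrane ligand Cxcl16. Among all named genes 53.1% were detected, so the members' share was near that of genes in general. Cxcl6, Cxcl12 and Cxcl13 were well above background on no array, where 34.4% of named genes were. Cxcl1 was well above background on 2 arrays and Cxcl11 on 1. Leaving out any replicate gave the same 4 detected genes. In RNA from whole cultures, fewer cells that make a transcript and less of it per cell cannot be told apart.

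**Figure D1:**
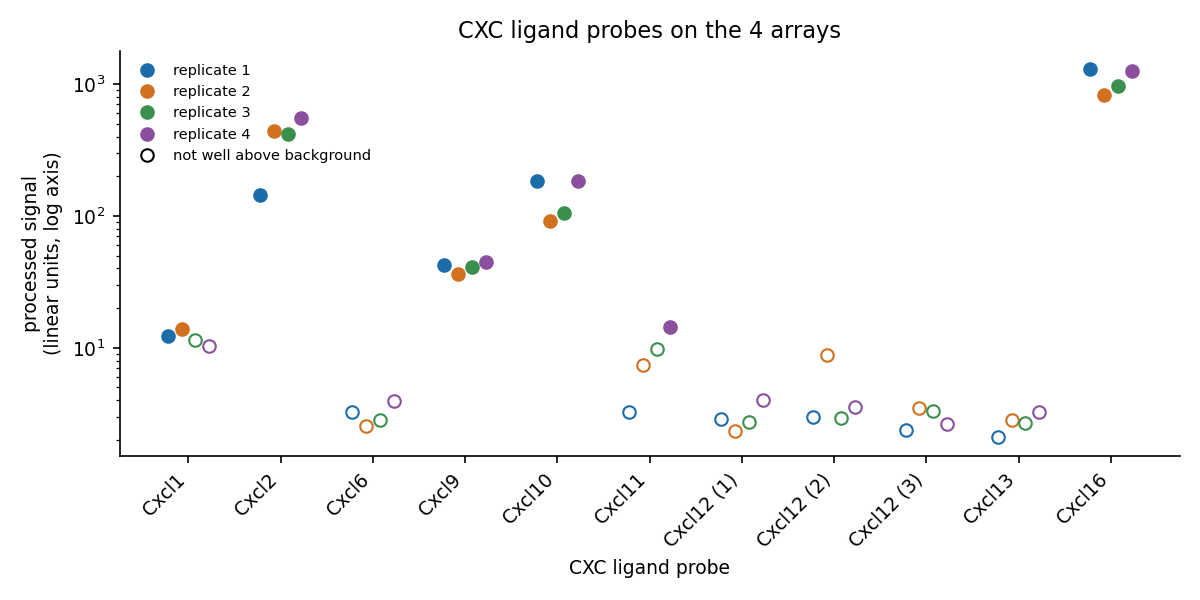
Processed signal (linear units on a log axis) of the 11 probes of CXC ligands on each of the 4 arrays, with open circles for values not well above background. Cxcl2, Cxcl9, Cxcl10 and Cxcl16 are filled on every array, Cxcl1 on replicates 1 and 2 and Cxcl11 on replicate 4, and heights of different probes are not comparable.

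Cxcl2, the ligand also called macrophage inflammatory protein 2, was the ELR member detected on every array. On replicates 1 to 4 its processed signal was 143, 442, 415 and 550.0. In levels these were 0.78, 1.98, 1.72 and 1.72, with a mean of 1.55 ± 0.53 (SD, n = 4). Replicate 1 was low and the other arrays lay close together. Without replicate 1 the SD was 0.15, about the error of 0.14 to 0.15 that the scanner software gave a single spot.

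Cxcl1, known in the rat as cytokine-induced neutrophil chemoattractant, lay at the edge of detection. Its probe was printed 10 times on each array, so the noise within an array could be seen. The mean signal over the spots used was 12.3 ± 3.22 on replicate 1 (SD, 9 spots), 13.97 ± 5.04 on replicate 2 (10 spots), 11.5 ± 6.27 on replicate 3 (9 spots) and 10.3 ± 2.23 on replicate 4 (9 spots). In raw signal the means differed by less than the SD of the spots within replicate 2 or replicate 3. Scaled to each array, the levels were -2.82, -3.10, -3.67 and -4.06 on replicates 1 to 4. The highest and lowest level lay farther apart than the SD between spots of any array, 0.34 to 0.86 log2 units. Cxcl1 was not well above background on replicates 3 and 4, so no difference is drawn from these levels. The number of spots well above background was 5, 6, 3 and 0 on replicates 1 to 4, which put the first 2 arrays just past the majority and the others short of it. One spot on replicate 3 read 252.7 and was left out, since the software marked it as an outlier. Its spots were positive and significant against background on all 4 arrays, a looser flag that 66.9% of named genes passed, and limma's test against negative controls called it (adjusted p = 5.15e-05), as it did 69.8% of named genes.

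**Figure D2:**
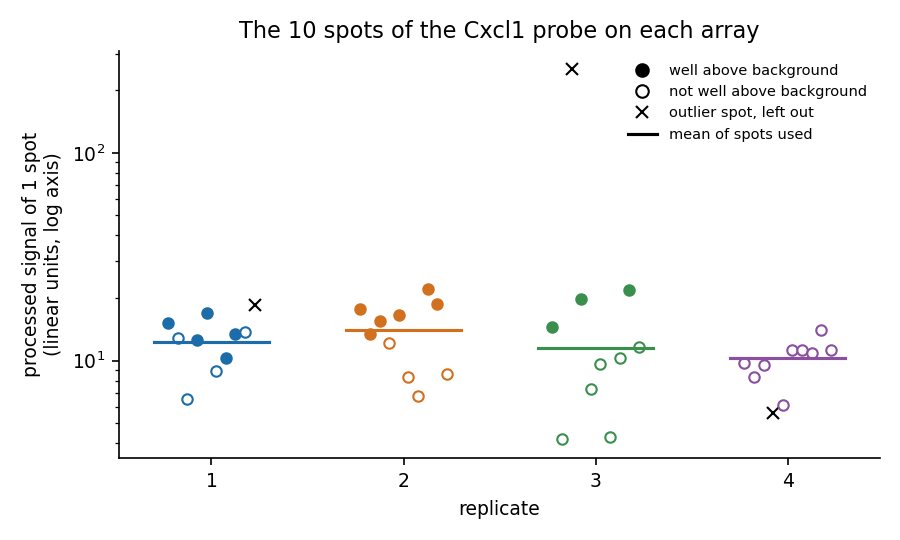
Processed signal of the 10 Cxcl1 spots on each array (log axis), with the mean of the spots used as a line and outlier spots as crosses. Spots of 1 array cover a wider range than the 4 array means, which lie between 10.3 and 13.97.

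Cxcl6, the ELR ligand that in the mouse goes by the name Cxcl5, was well above background on no array. Its signal was 3.23, 2.57, 2.82 and 3.98 on replicates 1 to 4, against a software error of 2.59 to 3.24 for that spot, and it was positive and significant on replicate 4. Limma's test did not call it above the negative controls (adjusted p = 0.851). Signals this low only bound the transcript: the lowest probe well above background read 9.17 on replicate 1 and 13.2 on replicate 4.

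Among the interferon-inducible ligands, Cxcl10 had the widest spread of the 4 detected members, except under normexp, where its SD was 0.34 against 0.51 for Cxcl2 and 0.43 for Cxcl16. Across replicates 1 to 4 it gave signals of 185, 91.0, 106 and 185. Scaled to each array, the levels were 1.15, -0.30, -0.26 and 0.14, with a mean of 0.19 ± 0.67 (SD, n = 4). Replicate 1 was the highest, and the gap to replicate 4 was wider than the spread of the other arrays, whose SD was 0.24.

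Cxcl9, which shares the receptor Cxcr3 with Cxcl10, varied little in raw signal. It read 42.6, 36.2, 40.7 and 44.6 on replicates 1 to 4. Scaling to the 75th percentile turned this into levels of -0.97, -1.63, -1.64 and -1.91, a mean of -1.53 ± 0.40 (SD, n = 4). Replicate 1 was again the highest, by 0.76 over the mean of the others, although its raw signal there lay within the range of the other arrays. Under normexp background correction it was 0.34.

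Cxcl11, the third ligand of that receptor, had signals of 3.27, 7.39, 9.85 and 14.4 on replicates 1 to 4. It was well above background on replicate 4 alone, while its spots on replicates 2 and 3 were positive and significant. Limma's test against negative controls called it (adjusted p = 0.0109). Replicate 1 thus had the lowest signal for Cxcl11 and the highest level for Cxcl9 and Cxcl10, but values not well above background have no order, so no difference is drawn from it.

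Cxcl16, the membrane-bound ligand that also serves as a scavenger receptor for oxidised lipoprotein on macrophages, was detected with raw signals of 1297, 831, 963 and 1250 on replicates 1 to 4. The levels were 3.96, 2.89, 2.93 and 2.90, a mean of 3.17 ± 0.53 (SD, n = 4). Replicates 2 to 4 lay between 2.89 and 2.93, with an SD of 0.020 that was smaller than the software's error of 0.14 for the spot. Replicate 1 stood 1.05 above their mean, a 2.07-fold difference. It was the only member with 1 array set apart by a gap that was large against the whole range of its 4 values (Dixon's 95% limit), a pattern that 8.41% of all detected genes showed and that 6.46% showed with replicate 1 as the array apart.

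The homeostatic ligands were not detected. Cxcl12 had 3 probes and none was well above background on any array, with signals between 2.34 and 8.76. The highest of these, 8.76 on replicate 2, came from 1 probe whose other values were 2.97, 2.94 and 3.57, and limma's lowest adjusted p over the 3 probes was 0.257. Cxcl13, the B cell attractant of lymphoid follicles, read 2.10, 2.82, 2.67 and 3.25 on replicates 1 to 4 (limma adjusted p = 0.985). Of the 20 values of Cxcl6, Cxcl12 and Cxcl13, 17 lay within 0.05 of 1 as a ratio of signal to software error. These were the values without the positive-and-significant flag, so the ratio repeats that flag and adds no support. Signals so close to the software's error are not read as levels.

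The detected ligands did not move together across the replicates. On replicate 1 Cxcl2 was 1.03 below the mean of the other arrays (2.04-fold), whereas Cxcl9, Cxcl10 and Cxcl16 were 0.76, 1.29 and 1.05 above it (1.69-fold, 2.44-fold and 2.07-fold). Replicate 1 was the lowest array for Cxcl2, as for 32.8% of all 8772 detected genes, and the highest for the other members, as for 42.3%. It was the farthest array from the mean for all 4 members and for 54.7% of detected genes, so that alone was common. A level at least 1 log2 unit above the mean of the other arrays, which Cxcl10 and Cxcl16 had on replicate 1, was found in 4.16% of detected genes, and one at least 1 unit below that mean, which Cxcl2 had, in 2.54%. The SDs of Cxcl2, Cxcl9, Cxcl10 and Cxcl16 were higher than those of 91.3%, 81.0%, 96.2% and 91.2% of detected genes, whose median SD was 0.24. The direction was the same for each of the 4 genes under quantile normalization, normexp, and the percentile over detected probes.

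**Figure D3:**
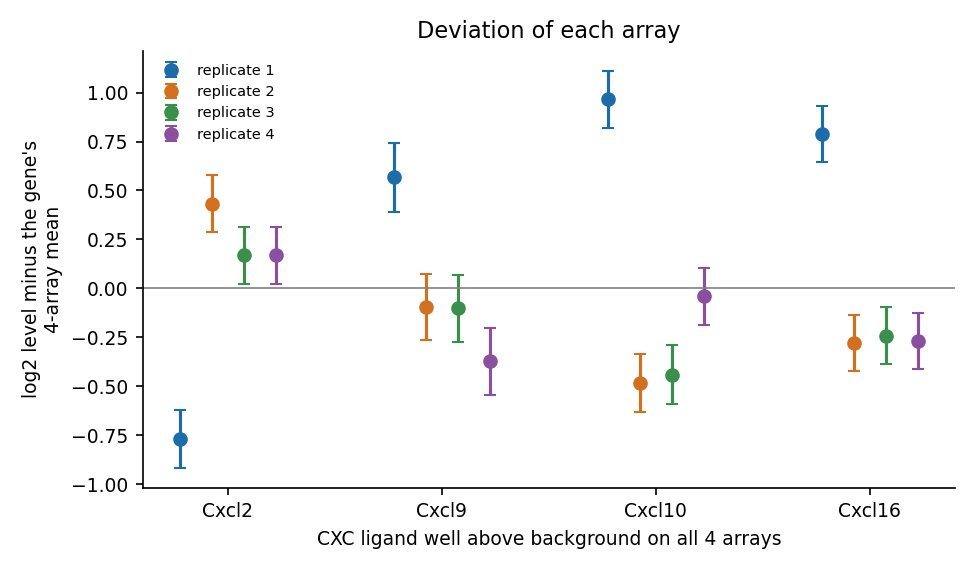
Log2 level of each array minus the gene's 4-array mean for the 4 CXC ligands detected on all arrays, with the scanner software's error of the spot as bars. Replicate 1 lies below the others for Cxcl2 and above them for Cxcl9, Cxcl10 and Cxcl16. The bars show the error of a spot and not the variation between cultures.

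Differences between probes within an array do not depend on the array's scale factor, though they do depend on the background handling. How they move from array to array shows unequal change. Cxcl10 minus Cxcl2 was 0.37 on replicate 1 and -2.28, -1.97 and -1.57 on replicates 2 to 4, so the signed difference was higher by 2.31 on replicate 1 than in the mean of the others. Cxcl16 minus Cxcl2 moved by 2.08 and Cxcl9 minus Cxcl2 by 1.78 in the same sense. Among the ligands that are not ELR ligands the movement was smaller: Cxcl16 minus Cxcl10 changed by -0.24, Cxcl16 minus Cxcl9 by 0.30 and Cxcl10 minus Cxcl9 by 0.53. In 2 of these pairs replicate 1 did not stand apart but lay near replicate 4. Cxcl10 minus Cxcl9 was 2.12, 1.33, 1.38 and 2.05 on replicates 1 to 4, and Cxcl16 minus Cxcl10 was 2.81, 3.19, 3.18 and 2.76. Replicate 1 was also the dimmest array and had the lowest share of spots well above background, 50.9% against 53.9% to 58.9%, and the part of these in the differences was not tested.

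Most members sit in 2 neighbourhoods of chromosome 14 in the RefSeq annotation of the GRCr8 assembly, used here for order and for promoter sequences since the array's own annotation is on another build. Cxcl11, Cxcl10 and Cxcl9 follow each other with no other protein-coding gene between them. After 17 further protein-coding genes come Cxcl2 and Cxcl1, and then, after 1 more, Cxcl3, the platelet chemokines Pf4 and Ppbp, and Cxcl6. Each neighbourhood held both detected and undetected genes: Cxcl10 and Cxcl9 beside Cxcl11, and Cxcl2 beside Cxcl1, with Cxcl6 at the far end.

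The promoters of the 4 detected ligands and of Cxcl6 are shown because the detected genes differed in their course over the arrays, and because Cxcl6 carries the same kind of match as Cxcl2 while its transcript was well above background on no array. Each is the 250 bases before the annotated start from RefSeq, build GRCr8, 5′ to 3′ on the gene's strand, with the motif matches in capitals. Cxcl2 is at chr14:17467256-17467505 on the minus strand, Cxcl6 at chr14:17596418-17596667 on the minus strand, Cxcl9 at chr14:16006916-16007165 on the plus strand, Cxcl10 at chr14:15988816-15989065 on the plus strand and Cxcl16 at chr10:55669951-55670200 on the minus strand.
Cxcl2: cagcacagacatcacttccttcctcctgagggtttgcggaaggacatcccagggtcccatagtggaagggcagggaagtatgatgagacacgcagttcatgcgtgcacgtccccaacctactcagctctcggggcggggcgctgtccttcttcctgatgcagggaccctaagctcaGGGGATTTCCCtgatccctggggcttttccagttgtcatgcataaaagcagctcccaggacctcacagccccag
Cxcl6: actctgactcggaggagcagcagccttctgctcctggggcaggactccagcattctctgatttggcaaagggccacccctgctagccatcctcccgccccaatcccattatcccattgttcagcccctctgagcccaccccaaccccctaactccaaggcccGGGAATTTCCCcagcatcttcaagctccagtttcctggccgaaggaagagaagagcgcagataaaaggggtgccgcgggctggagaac
Cxcl9: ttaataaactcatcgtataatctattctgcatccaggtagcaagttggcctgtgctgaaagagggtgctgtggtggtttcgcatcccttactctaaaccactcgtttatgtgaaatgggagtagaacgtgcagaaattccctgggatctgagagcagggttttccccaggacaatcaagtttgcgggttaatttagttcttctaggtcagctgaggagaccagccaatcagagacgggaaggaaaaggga
Cxcl10: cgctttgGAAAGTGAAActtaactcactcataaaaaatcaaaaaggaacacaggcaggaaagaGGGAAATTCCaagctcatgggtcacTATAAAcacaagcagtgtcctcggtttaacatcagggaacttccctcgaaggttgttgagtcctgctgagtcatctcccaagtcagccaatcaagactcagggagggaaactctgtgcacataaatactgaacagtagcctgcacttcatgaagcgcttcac
Cxcl16: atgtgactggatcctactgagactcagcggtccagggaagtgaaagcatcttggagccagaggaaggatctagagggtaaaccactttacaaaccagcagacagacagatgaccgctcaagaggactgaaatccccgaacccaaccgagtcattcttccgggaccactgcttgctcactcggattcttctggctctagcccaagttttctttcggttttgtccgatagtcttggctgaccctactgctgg

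The windows were searched on both strands for the NF-kB consensus, for the interferon response element, written as GAAA and again GAAA after any 2 bases, and for the TATA box written TATAAA. The NF-kB consensus was in 5 of the 9 member promoters in the table and in 3.54% of all 33469 promoters of that length. In the ELR genes it formed an 11-base run read in 2 overlapping registers: GGGGATTTCCC from 74 to 64 bases before the start of Cxcl2, and GGGAATTTCCC from 84 to 74 bases before Cxcl1 and from 88 to 78 bases before Cxcl6. So the same letters stood before a transcript at the edge of detection and before one that was not detected. Cxcl10 had GGGAAATTCC from 187 to 178 bases before its start, and Cxcl11 had the same 10 letters from 74 to 65 bases before its own.

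The interferon response element was in 1 of the 9 member promoters, as GAAAGTGAAA from 243 to 234 bases before Cxcl10, and in 3.41% of all promoters. TATAAA was in 3 of 9, those of Cxcl10, Cxcl11 and Cxcl13, and in 12.9% of all. It lay from 41 to 36 bases before Cxcl11 and from 33 to 28 before Cxcl13, but far upstream, from 162 to 157, before Cxcl10. Cxcl9 and Cxcl16 had none of these matches in the window, and neither had Cxcl12. A match of letters is a description and does not show that a factor was bound.

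**Figure D4:**
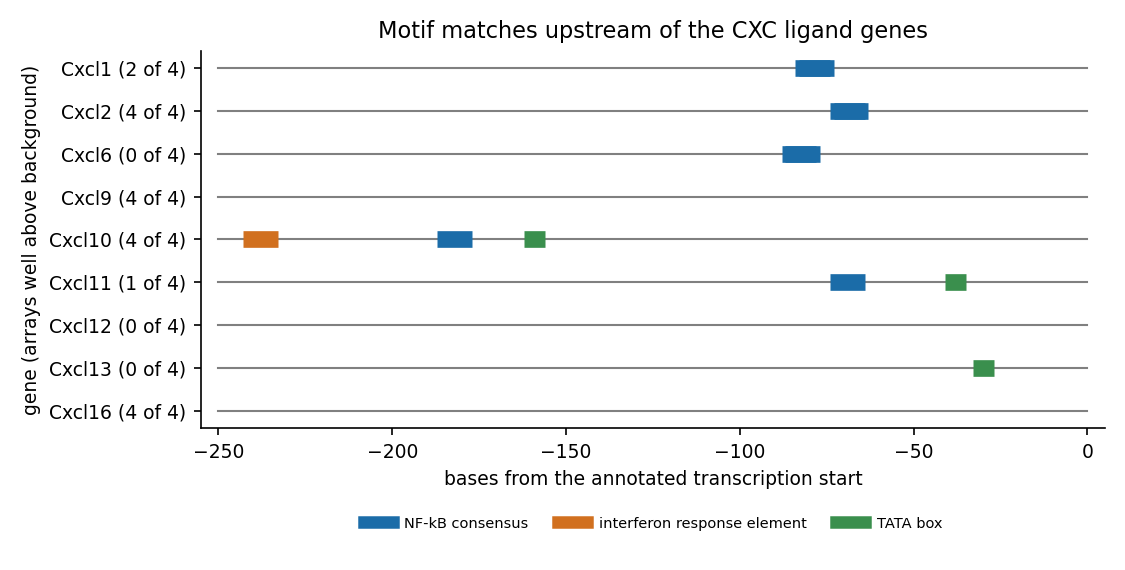
Matches of 3 motifs in the 250 bases before the annotated start of 9 CXC ligand genes, against the distance from the start in bases, with the number of arrays on which the gene was well above background. The NF-kB consensus lies between 88 and 64 bases before the start in Cxcl1, Cxcl2, Cxcl6 and Cxcl11, and farther upstream in Cxcl10.

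Of the receptors for these ligands, 1 was detected, where 53.1% of all named genes were. Of 7 measured this was Cxcr1, which binds some ELR ligands and in humans answers interleukin 8. It had a signal of 956, 1231, 1372 and 1557 on replicates 1 to 4 and a level of 3.41 ± 0.13 (SD, n = 4). Its spread was small beside that of the ligands in the main scaling. On replicate 1 it lay 0.15 above the mean of the other arrays there, but under normexp this deviation was -0.38, beside 0.34 for Cxcl9. The related Cxcr2 was well above background on no array, and neither were Cxcr3, which binds Cxcl9, Cxcl10 and Cxcl11, Cxcr6, which binds Cxcl16, and the decoy receptor Ackr3. Single values of Cxcr3 (12.5 on replicate 3) and Ackr3 (10.6 on replicate 2) exceeded those of their other arrays.

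Cxcr4, the receptor of Cxcl12, was well above background on replicates 1 and 4, with signals of 41.2 and 27.0, and not on replicates 2 and 3, with 7.56 and 8.68. The probes of Cxcr5, the receptor of Cxcl13, disagreed. One read 30.9, 40.7, 21.5 and 12.4 on replicates 1 to 4 and was well above background on the first 3, and its spot lay in the dim rectangle of replicate 4. The other stayed between 2.60 and 5.88 and was well above background on no array. These genes were named for their partial detection, after their values were seen.

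Enzymes that release the membrane ligand were detected. The metalloprotease Adam10, which sheds Cxcl16 from the cell surface, had a level of -0.89 ± 0.07 (SD, n = 4), and the related Adam17 one of 1.77 ± 0.33 (SD, n = 4). Adam17 was lowest on replicate 1, at 1.37 against 1.64 to 2.05, where Cxcl16 was highest. Dpp4, the peptidase that trims Cxcl10 and Cxcl12, was well above background on no array by either of its 2 probes.

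None of the other 4 CXC ligands of the rat was detected on all arrays, where 53.1% of all named genes were. Pf4 and Cxcl14 were well above background on none. Ppbp, a platelet ligand, had signals of 6.42, 5.97, 16.1 and 42.4 on replicates 1 to 4 and was well above background on replicates 3 and 4. The signal of Cxcl17 was 22.8 on replicate 4, where it was well above background, against 2.32 to 7.85 elsewhere.

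The signalling genes upstream of the ELR ligands were detected in full, 10 of 10 measured, where 53.1% of all named genes were. Among them were the cytokines Tnf at 2.00 ± 0.77 and Il1b at 6.75 ± 0.57 and their relative Il1a at 5.66 ± 0.25 (SD, n = 4). On replicate 1, 3 of these 10 lay above the mean of the other arrays, with a list median of -0.15, while 55.8% of all detected genes did, with a median of 0.07. Tnf was at 0.88 on replicate 1 and between 2.22 and 2.62 elsewhere, and Il1b at 5.93 against 6.92 to 7.24, both lowest on the array where Cxcl2 was lowest. Il1a had no such gap, at 5.72 against 5.29 to 5.83. Under quantile normalization and under the percentile over detected probes 1 of 10 lay above, and under normexp 4 did. The shares of all detected genes were 51.8%, 48.0% and 52.7% in that order.

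Of the interferon route 11 of 13 measured genes were detected, where 53.1% of all named genes were. The receptor chains Ifngr1 and Ifngr2 lay at 4.61 ± 0.30 and 3.61 ± 0.15 (SD, n = 4). The interferons Ifng and Ifnb1 were well above background on no array. On replicate 1, 10 of the 11 lay above the mean of the others, with a list median of 0.53. Of all detected genes 55.8% did, with a median of 0.07. Under the other scalings between 9 and 10 of the 11 did, and 48.0% to 52.7% of all detected genes. The exception was Ifnar1, a chain of the type I interferon receptor, at -0.06 on replicate 1 and between 0.87 and 1.18 elsewhere. Irf7, a transcription factor of the interferon response named after its values were seen, had a level of 4.00 on replicate 1 against 2.33 to 2.94. Earlier results of these data were known when the lists were chosen, so the counts of both lists are a description and no independent support.

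**Figure D5:**
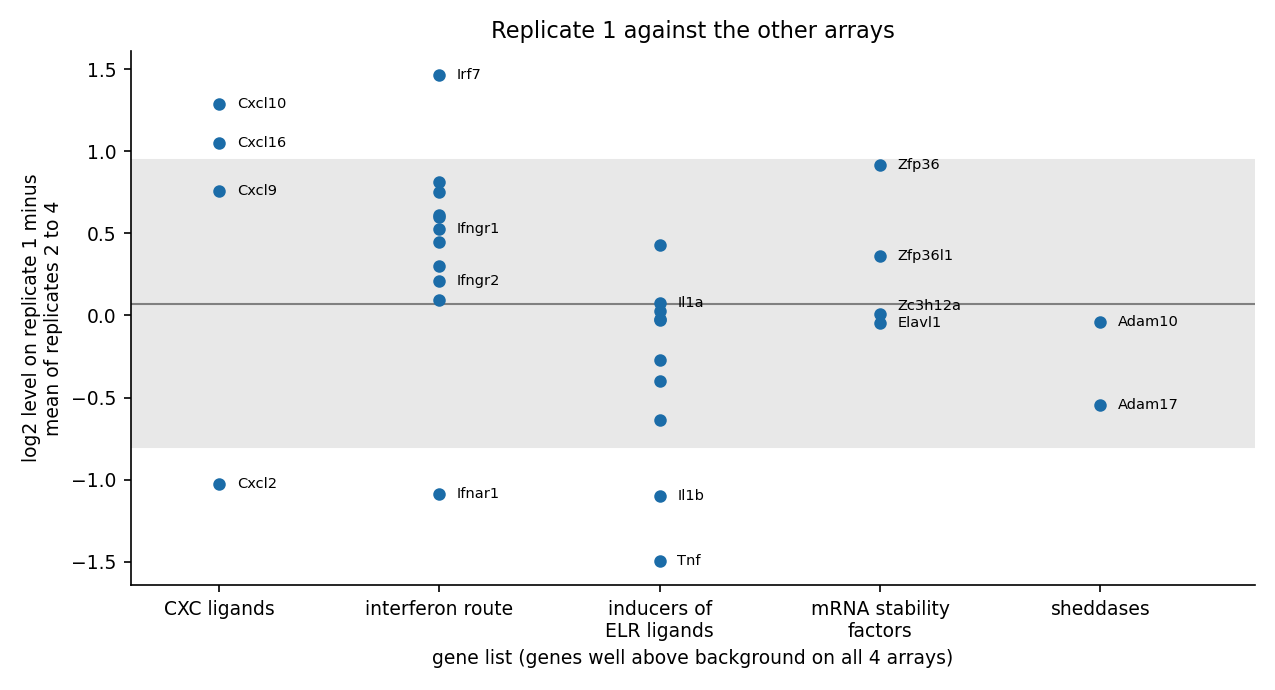
Log2 level on replicate 1 minus the mean of replicates 2 to 4 for the detected genes of 5 lists, labelled where the text names them, with the range from the 5th to the 95th percentile of all 8772 detected genes (-0.80 to 0.95) in grey and their median of 0.07 as a line. Cxcl9, Cxcl10 and Cxcl16 and 10 of 11 genes of the interferon route lie above 0, and Cxcl2 and Il1b lie at -1.03 and -1.10, with Tnf lower still.

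Factors that set how long ELR ligand transcripts last were detected as well, 4 of 4 measured, where 53.1% of all named genes were. Zfp36, tristetraprolin, which marks such transcripts for decay, lay at -2.56 ± 0.49 (SD, n = 4) and was 0.92 higher on replicate 1 than in the mean of the others. Its levels of -1.87, -2.55, -2.84 and -2.96 on replicates 1 to 4 fell as the 75th percentile used for scaling rose from 83.4 to 167. The part of that scaling in the difference was not tested. Its relative Zfp36l1 was at 0.61 ± 0.20, the stabilising Elavl1 at 4.42 ± 0.12 and the endonuclease Zc3h12a at -0.17 ± 0.44. On replicate 1, 3 of the 4 lay above the mean of the other arrays, with a list median of 0.18. Of all detected genes 55.8% did, with a median of 0.07. Under the percentile over detected probes 2 of the 4 did, where 48.0% of all detected genes did.

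The genes with the nearest course over the 4 arrays were found by the root mean square difference of their deviations from their own means, over 4 arrays and 8771 other detected genes. For Cxcl2 these were Orai2, a calcium channel subunit, at 0.021, Hexim1, an inhibitor of transcript elongation, at 0.030 and Chordc1, a partner of the chaperone Hsp90, at 0.033. For Cxcl10 they were Rgs7bp at 0.068, Nrm, a protein of the nuclear envelope, at 0.077 and Pola2, a subunit of DNA polymerase alpha, at 0.084. For Cxcl16 they were the interferon-inducible GTPase Gbp5 at 0.0012, the transcription factor Klf10 at 0.011 and the cell cycle gene Cdca3 at 0.018. With 4 arrays near matches are many: 70 genes lay within 0.1 of Cxcl2, 6 of Cxcl10 and 118 of Cxcl16.

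Markers checked which cells the RNA came from. All 6 macrophage markers were detected, with the lysosomal protein Cd68 at 7.44 ± 0.17, Csf1r at 1.83 ± 0.39 and the transcription factor Spi1 at 3.78 ± 0.11 (SD, n = 4). Of other cell types that make or answer CXC ligands, 1 of 5 neutrophil markers was detected, 2 of 6 of T and NK cells, 0 of 7 of epithelium, 1 of 6 of fibroblasts and 3 of 5 of endothelium. The share over all named genes was 53.1%. Elane and S100a8 of neutrophils, Cd3e and Cd8a of T cells, Epcam and Krt18 of epithelium and Col3a1 and Lum of fibroblasts were well above background on no array. Krt18 was positive and significant on all 4 arrays. Others were detected in part: Cd3g, Krt5 and Sftpc on replicates 3 and 4, Col1a1 and Kdr on replicate 4, and Tek on replicate 1. These were named for their partial detection, after their values were seen. Detected on all arrays were Camp, Cd4 and Nkg7, Dcn, and Pecam1, Cdh5 and Vwf, where Cd4 and Vwf were each detected by 1 of 2 probes. Whether these transcripts came from other cells than those of the macrophage line was not tested. On replicate 1 the macrophage list had a median of 0.05 against the other arrays (-0.04 to 0.13 under the other scalings), with Mrc1 higher by 1.36 and Csf1r by 0.69. The endothelial list had one of 0.01 (-0.08 to 0.15), with Pecam1 higher by 1.34. Camp lay 0.60 higher and Dcn 0.74 lower, and their part in the ligands' differences was not tested.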

How the data were processed

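Total RNA of 4 samples of NR8383 was labelled with Cy3 and hybridised to 1 array each, with 100 ng of RNA of an integrity number above 7.5, per the labels' protocols. The software was Feature Extraction 11.0.1.1 from Agilent, per the submitters' processing notes. The deposited values are spot intensity on a linear scale, after the software's background handling and not scaled between arrays, with flags of 0 or 1, per the file headers. Control spots (4259 per array) and outlier spots (440 to 1206) were left out, none was saturated, and spots of 1 probe were averaged. The main level was log2 of the processed signal minus the array's 75th percentile. Of 45280 probes, 20990 were named through unversioned accessions in RefSeq (GRCr8, names and order only). The files hold no column of gene names. Where a gene had several detected probes, their levels were averaged. Slide and scan were the same for all arrays and could not be blocks. No member of the family was compared between groups, since the labels give 1 group, and replicates may share sources not stated.

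The members and gene lists were chosen with earlier results of these data known. Named genes were all members, and of each other list by list order 3 detected on all arrays and 2 detected on none, with all exceptions in lists of 5 or fewer, and the 3 genes nearest in course to each detected member with an SD over 0.5. Alternatives were the positive-and-significant flag, limma's one-sided comparison with the negative controls' 95th percentile (Benjamini-Hochberg adjusted over all probes, threshold 0.05), detection on at least 3 arrays or by every probe, normexp with an offset of 50 (on median signals), quantile normalization, the percentile over detected probes, other probe summaries, and each replicate left out. Limma detection and the rule for arrays set apart were tested on simulated data. R 4.3.3, limma 3.58.1, data.table version 1.17.8 and matplotlib 3.10.9 were used.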

Additional observations from a re-analysis of the deposited data

Results flagged for a closer look

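Of 27 genes named by the rule and detected on all arrays, 2 had 1 array set apart by a gap that was large against the whole range of the 4 values. Chance gives about 5% such cases for normally spread values, and 8.41% of all detected genes had one. Cxcl16 had a level of 3.96 on replicate 1, against 2.89 to 2.93 elsewhere, and its gap stayed that large under quantile normalization, normexp and the percentile over detected probes. Nkg7, a granule gene of NK cells, had a level of -0.02 on replicate 2, against 0.31 to 0.34 elsewhere.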

How the results depend on the processing

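Under the detection alternatives run, between 4 and 6 members were detected on all arrays: 5 with the positive-and-significant flag, which added Cxcl1, and 6 with limma against negative controls, which added Cxcl1 and Cxcl11. Members well above background on no array numbered 3. Leaving out 1 replicate gave 3 to 4, where Cxcl11 joined without replicate 4, and the positive-and-significant flag left 1, Cxcl13. Keeping outlier spots, an alternative chosen after seeing the data, changed neither count. The deviation of replicate 1 kept its sign in every alternative run for the 4 detected members: it lay between -1.12 and -0.94 for Cxcl2, 0.34 and 0.80 for Cxcl9, 0.67 and 1.43 for Cxcl10 and 0.85 and 1.06 for Cxcl16, the smallest values of the last 3 being those of normexp. Without replicate 1 the SD fell from 0.53 to 0.15 for Cxcl2, from 0.40 to 0.16 for Cxcl9, from 0.67 to 0.24 for Cxcl10 and from 0.53 to 0.020 for Cxcl16. Levels under the percentile over detected probes are lower by construction, 0.09 for Cxcl16 in place of 3.17. No paired analysis was possible because the labels give a single group. The lowest signal of a probe well above background was 9.17 to 13.2 by array, and the looser calls reach below it.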
